A study of Homo sapiens with 25 samples.

Results

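The regions described here are broad H3K4me3 domains of HEC-1A cells, an established line of endometrial adenocarcinoma epithelial cells. CUT&RUN releases and sequences the chromatin that an antibody binds in permeabilised cells. Peaks of 6 H3K4me3 CUT&RUN lists, 3 from untreated and 3 from THC-treated cells, were merged wherever they overlapped, on chromosomes 1 to 22 and X. Members were chosen by the measured width of these regions: a merged region was kept as a broad domain when every one of the 6 lists had a peak in it and its merged width was 5000 bp or more. This gave 2960 domains out of 47473 merged regions, or 13.06% of the 22662 regions shared by all 6 lists. Widths given below are therefore descriptions. As the bound was set on peaks of both groups merged, a domain wide in 1 group alone could pass it, so the comparison of widths with and without THC is not independent of the choice either. Merged from the lists of 1 group alone, 1927 domains (65.1%) reached 5000 bp in both groups, 374 in the untreated lists only, 424 in the THC lists only and 235 in neither.

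All libraries came from HEC-1A cells labelled wild type. RNA was measured in 3 untreated libraries, 3 from cells given 20 µM THC for 24 h and 3 from cells given 20 µM THC for 72 h. ATAC-seq, which finds accessible chromatin through an enzyme that inserts into it, had the same 3 groups of 3. The H3K4me3 libraries were 3 untreated and 3 given 20 µM THC, and the labels give no duration for that treatment and no time for the untreated cells. THC is tetrahydrocannabinol, the main psychoactive compound of cannabis. The labels call the samples biological replicates without naming separate cultures. A p-value below thus speaks only to the spread over these libraries, part of which may be technical. The untreated cells are not labelled as having received a vehicle. The IgG control of the CUT&RUN was not used here.

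H3K4me3, trimethylation of lysine on the tail of histone H3, is laid down by KMT2 and SETD1 enzymes with subunits such as WDR5 and RBBP5 and removed by KDM5 demethylases. It marks the starts of active and poised genes, usually as a peak on the nucleosomes flanking the start. In many cell types a minority of genes, among them genes of cell identity and tumour suppressors, carry the mark over much longer stretches, which are called broad domains.

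The sequences below are the 300 bases around the annotated start (250 before and 50 from the start on) of genes from the widest domains, from the widest domains of genes with the largest RNA changes, and from domains whose covered width differed most between the groups. They are from RefSeq, GRCh38.p14, written 5′ to 3′ on the gene's strand, with CG dinucleotides in capitals, because CG-rich starts are the usual seat of H3K4me3.
LINC00513, chr7:130913214-130913513, plus strand: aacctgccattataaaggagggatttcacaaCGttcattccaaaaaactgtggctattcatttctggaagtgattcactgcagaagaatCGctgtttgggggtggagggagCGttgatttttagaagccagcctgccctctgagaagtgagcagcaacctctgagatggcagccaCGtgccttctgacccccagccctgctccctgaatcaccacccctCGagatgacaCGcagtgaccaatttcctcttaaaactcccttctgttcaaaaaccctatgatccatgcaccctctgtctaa
HOXA-AS2, chr7:27121669-27121968, plus strand: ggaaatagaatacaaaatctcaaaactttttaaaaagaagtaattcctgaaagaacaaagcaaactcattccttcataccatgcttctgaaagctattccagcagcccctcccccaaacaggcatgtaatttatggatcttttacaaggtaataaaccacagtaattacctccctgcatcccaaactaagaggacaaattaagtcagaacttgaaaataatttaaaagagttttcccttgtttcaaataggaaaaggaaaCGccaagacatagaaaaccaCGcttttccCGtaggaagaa
HOXA4, chr7:27130708-27131007, minus strand: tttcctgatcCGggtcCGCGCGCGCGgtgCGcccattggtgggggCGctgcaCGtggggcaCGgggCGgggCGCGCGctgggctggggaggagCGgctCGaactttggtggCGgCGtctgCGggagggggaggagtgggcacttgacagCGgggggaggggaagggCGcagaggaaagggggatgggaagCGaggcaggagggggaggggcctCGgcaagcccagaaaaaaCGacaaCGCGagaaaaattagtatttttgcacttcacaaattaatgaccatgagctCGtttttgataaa
ID3, chr1:23559452-23559751, minus strand: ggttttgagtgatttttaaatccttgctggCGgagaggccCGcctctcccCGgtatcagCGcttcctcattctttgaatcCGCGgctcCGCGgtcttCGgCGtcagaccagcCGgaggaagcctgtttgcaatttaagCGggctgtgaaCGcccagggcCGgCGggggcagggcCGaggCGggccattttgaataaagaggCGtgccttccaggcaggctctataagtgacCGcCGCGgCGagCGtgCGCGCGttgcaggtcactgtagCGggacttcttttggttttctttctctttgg
CD68, chr17:7579388-7579687, plus strand: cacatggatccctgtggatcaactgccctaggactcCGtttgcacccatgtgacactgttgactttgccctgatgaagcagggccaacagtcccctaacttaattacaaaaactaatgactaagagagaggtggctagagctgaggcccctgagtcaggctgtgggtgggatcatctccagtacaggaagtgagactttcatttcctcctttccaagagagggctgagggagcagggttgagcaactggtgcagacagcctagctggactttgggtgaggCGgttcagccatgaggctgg
UPP1, chr7:48088454-48088753, plus strand: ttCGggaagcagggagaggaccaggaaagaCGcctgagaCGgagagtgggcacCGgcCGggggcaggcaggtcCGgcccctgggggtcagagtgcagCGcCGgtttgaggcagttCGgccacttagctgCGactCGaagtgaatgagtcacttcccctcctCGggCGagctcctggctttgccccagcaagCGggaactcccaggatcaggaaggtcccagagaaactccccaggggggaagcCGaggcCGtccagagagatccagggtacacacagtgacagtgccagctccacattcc
CDC20, chr1:43358731-43359030, plus strand: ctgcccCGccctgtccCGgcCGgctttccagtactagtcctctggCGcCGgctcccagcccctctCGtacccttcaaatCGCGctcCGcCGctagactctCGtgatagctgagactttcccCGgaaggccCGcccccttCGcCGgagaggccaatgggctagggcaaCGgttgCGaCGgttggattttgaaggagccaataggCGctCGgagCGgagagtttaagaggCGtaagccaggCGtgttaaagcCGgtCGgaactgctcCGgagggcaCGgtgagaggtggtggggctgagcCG
RNF187, chr1:228487132-228487431, plus strand: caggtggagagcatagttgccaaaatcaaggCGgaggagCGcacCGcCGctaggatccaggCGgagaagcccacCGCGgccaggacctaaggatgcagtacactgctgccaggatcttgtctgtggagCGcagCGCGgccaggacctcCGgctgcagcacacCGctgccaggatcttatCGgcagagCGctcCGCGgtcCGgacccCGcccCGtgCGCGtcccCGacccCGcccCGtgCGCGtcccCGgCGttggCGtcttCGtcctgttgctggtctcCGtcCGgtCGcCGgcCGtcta

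The sequences differed widely in CG content although all 8 lie inside broad domains. RNF187 had 35 CG dinucleotides, CDC20 had 28, HOXA4 and ID3 had 27 each and UPP1 had 16. LINC00513 had 6, HOXA-AS2 had 3 and CD68 had 2. Over the 2323 protein-coding starts in domains with a listed promoter the median was 28 CG dinucleotides (quartiles 21 and 36). The median was 26 over 5868 starts in the other shared regions and 8 over 5601 starts in no shared region. The GC box letters GGGCGG stood, on either strand, in 73.3% of domain promoters, 73.0% of promoters in the other shared regions and 58.5% of all 13792 protein-coding promoters. The letters TATAAA stood in 6.5% of domain promoters, 4.5% of those in other shared regions and 10.0% of all. By these counts domain promoters of all widths together were close to promoters under narrower shared regions. Both lay far from promoters with no shared region, of which 37.2% held GGGCGG and 17.3% held TATAAA. Of the 87 promoters in domains of 12000 bp or more, 13.8% held TATAAA, beside 10.0% of all promoters, and 69.0% held GGGCGG. These 87 are few, and their difference from the other sets was not tested. The median of the 87 was 27 CG dinucleotides (quartiles 15.5 and 35.5). A match is a run of letters and not a measured binding site.

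Most domains lay near the lower bound of width. The median merged width was 6077 bp (quartiles 5436 and 7355) and the widest domain spanned 36102 bp. There were 1415 domains of 5000 to under 6000 bp, 1005 of 6000 to under 8000 bp, 421 of 8000 to under 12000 bp, 106 of 12000 to under 20000 bp and 13 of 20000 bp or more. The 3 domains just inside the bound, at ZFAND2A, at EML3 and ROM1, and at CNOT7 and VPS37A, had merged widths of 5000, 5001 and 5001 bp, and the 3 regions just outside it had 4998, 4998 and 4999 bp. No region of 5000 bp or more was lost through the condition that all 6 lists hold a peak.

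A merged width is at least as wide as what any single library shows. The bases under peaks in a domain, called covered width below, had medians of 5311, 5268 and 5256 bp in the untreated libraries and 5146, 5241 and 5468 bp in the THC libraries. In 1256 domains at least 5000 bp were covered in each of the 6 libraries, in 1215 in some of them and in 489 in none. A single unbroken peak in all 6 libraries made up 1140 domains. The domains held 27.6 to 30.0% of all listed H3K4me3 bases of a library. In each library the strongest peak of a domain had a median fold enrichment, the authors' own value, at the 86.6th to 88.9th percentile of that list, against the 57th to 64.1st for the other shared regions. Domains were found on every chromosome examined and made up from 7.69% of the shared regions on chromosome X to 15.96% on chromosome 12.

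**Figure D1:**
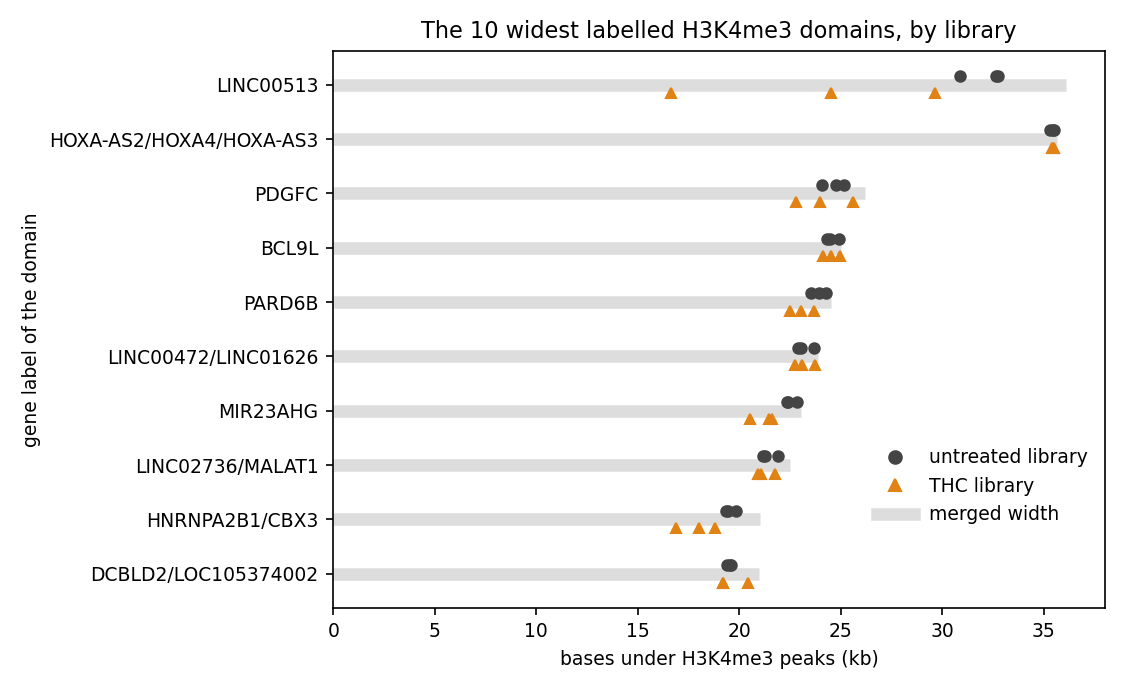
Bases under H3K4me3 peaks, in kb, in the 10 widest domains with a gene label, for 3 untreated libraries (circles) and 3 THC libraries (triangles); the grey bar is the merged width. Most domains have all 6 libraries close together, while the THC libraries at LINC00513 range from 16653 to 29657 bp against 30884 to 32748 bp without THC.

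The widest domains were at long non-coding RNAs, a homeobox cluster and protein-coding genes of several kinds. The widest, chr7:130892273-130928374, contains the start of LINC00513, a long intergenic non-coding RNA. It covered 32632, 32748 and 30884 bp in untreated cells and 16653, 24496 and 29657 bp with THC, in 7 to 9 peaks without THC and 9 to 15 with it. The next, chr7:27108865-27144504, lies in the HOXA cluster of body-patterning transcription factors and contains the starts of HOXA4, HOXA-AS2 and HOXA-AS3. It was a single peak of 35305 to 35518 bp in every library. A domain of 25000 bp lay at BCL9L, a coactivator of Wnt signalling, and was also a single peak in all 6 libraries. The others of the 10 widest were at PDGFC (26172 bp, inside the gene and away from its start), PARD6B (24498 bp), LINC00472 (23858 bp), MIR23AHG (23025 bp), MALAT1 (22483 bp), HNRNPA2B1 with CBX3 (21010 bp) and DCBLD2 (20978 bp). BCL9L and PARD6B have no strand in the reference table used and were placed by the end of the gene that lies in the domain.

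Domains with a single protein-coding start mostly extended further into the gene than before it. Starts of 3369 genes, 2645 protein-coding and 724 long non-coding, fell in 2232 domains: 1204 domains held 1 start, 928 held 2, 92 held 3 and 8 held 4 or more. No listed outermost start fell in 633 domains, and starts on chromosome 8, which has 95 domains, were not used here. Of the domains with 2 starts, 884 had them on opposite strands, 553 of these in divergent orientation within 1000 bp, as at HSPD1 and HSPE1, which encode the mitochondrial chaperonin and its partner. In the 1063 domains with a single protein-coding start the median extent was 2163 bp before and 3878 bp after it, and the part after the start was the longer in 858 of them (80.7%). Narrower shared regions had 1144 bp before and 2039 bp after the start and 83.4% with the longer part after it, so the asymmetry was of like size in both.

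Genes in domains had abundant RNA. TPM is an RNA level scaled for transcript length and library total, so it can be compared between genes. Median TPM of the 2590 protein-coding domain genes was 40.6, 42.2 and 40.3 in untreated cells, 36.1, 36.3 and 36.2 after 24 h of THC, and 39.8, 39.9 and 39.8 after 72 h. For the 6343 protein-coding genes whose start lay in another shared region the medians were 19.6 to 20.5, 16.9 to 17.1 and 21.1 to 21.3 in the 3 groups. The domain genes had the higher median in all 9 libraries. A mean of 1 TPM or more was reached by 98.0% of domain genes, 91.9% of genes in other shared regions and 16.9% of the 6315 genes in no shared region. Medians over genes of the mean TPM were larger in the wider classes, from 25.7 at 3000 to under 5000 bp to 35.5, 41.4 and 47.8 in the next 3 classes and 61.0 for the 105 genes in domains of 12000 bp or more. These are descriptions across genes, which are not independent replicates.

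**Figure D2:**
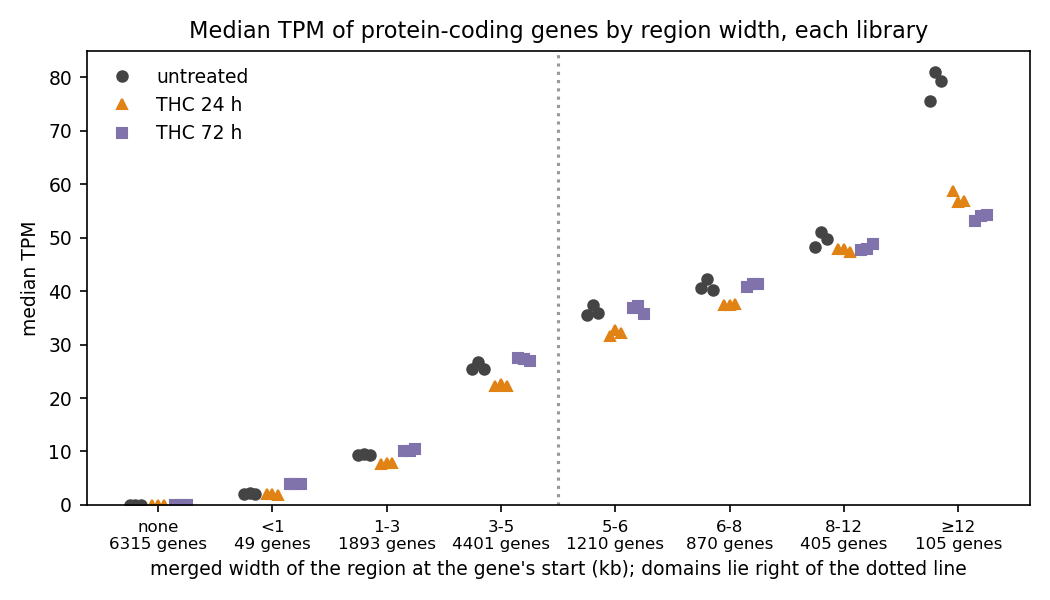
Median TPM of protein-coding genes (vertical axis) by the merged width, in kb, of the H3K4me3 region at the gene's start (horizontal axis); each point is 1 of 9 libraries, coloured by group. Medians climb from 9.42 TPM (mean over libraries) at 1000 to under 3000 bp to 61.0 in the widest class, and in that class the 3 untreated libraries (75.6 to 80.9) lie above the 6 THC libraries (53.2 to 58.7).

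Some of the listed cell identity genes carried a domain. Of the 32 endometrial and Müllerian epithelial transcription factors listed, 23 had a located start and 7 had it in a domain. PAX8, a factor of Müllerian epithelium, had a domain of 13787 bp and 249 ± 11 TPM (SD, n = 3) in untreated cells, and PAX2, its paralogue, had 13268 bp and 13 ± 0.14 TPM. KLF5 and KLF6, zinc-finger factors of epithelia, had 9843 and 7937 bp. Of 22 epithelial adhesion and keratin genes 11 had a located start and 5 of these had a domain, at the claudins CLDN4, CLDN1 and CLDN7, at the tight-junction gene OCLN and at the keratin KRT8, which had 344 ± 7.4 TPM in untreated cells. KRT8 shares its domain of 6921 bp with KRT18, a gene placed by its end. Of 13 immune markers 8 had a located start and of 10 endothelial markers 6, and none of these 14 starts lay in a domain. Every immune marker was at or under 2.09 TPM in every library. CD8A was the highest, at 0.873 to 2.09 TPM, ITGAM had 0.112 to 1.43, CD3D, MS4A1, TYROBP and AIF1 were at 0 and PTPRC at most 0.007. Of 12 stromal markers 4 had a located start, and of these ACTA2, smooth muscle actin, had a domain and 2.47 to 6.04 TPM. That domain also holds the start of FAS-AS1. COL1A1 had 0.419 to 3.1 TPM and THY1 0.044 to 1.72, while the other 9 stromal markers were at or under 0.406.

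Other lists held a domain at between 33.3% and 65.2% of their located genes, beside 16.7% of all 15812 located protein-coding genes and 26.9% of the 9436 with a mean of 1 TPM or more. The shares were 30.4% for the Müllerian factors and 45.5% for the adhesion and keratin genes above, and the differences between lists were not tested. A domain was found at 13 of 22 located growth and immediate early transcription factors, at 17 of 27 tumour suppressors and at 15 of 23 genes of chromatin remodelling and H3K4 methylation. It was found at 9 of 24 genes of the integrated stress response, 7 of 21 of sterol and fatty acid synthesis, 12 of 19 heat shock and ER chaperones and 8 of 15 long non-coding RNAs, beside 6.36% of all located long non-coding RNA genes. The lists were written with earlier results of these data known.

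With THC, no domain passed the test for a change in covered width. The linear model over all 22662 shared regions (limma, Benjamini-Hochberg adjusted p of 0.05) called 0 regions, so the background share was 0.0%. The smallest adjusted p was 0.0757 among all domains and 0.364 among the 1927 that reached 5000 bp in each group alone. At an unadjusted p of 0.05, 137 domains were wider and 104 narrower with THC, 8.14% of all domains against 7.44% of the other shared regions. Median covered width, on the log2 scale, was 12.37 ± 0.0079 in untreated and 12.37 ± 0.0449 in THC libraries (SD, n = 3 each), a difference of 0.0014 (exact two-sided permutation test, p = 1.0; 3 against 3 cannot go below 0.1). The THC libraries were the more spread, with the first at 5146 bp and the third at 5468 bp. The median change over domains was -0.0003, with quartiles at -0.059 and 0.059, and 93.2% of domains lay within 0.2 of no change. No domain differed by 2-fold or more. Median standard errors were 0.075 in domains and 0.157 in the other shared regions. The same change in bases is a smaller log2 change in a wider region. The choice by width therefore favours small log2 differences and standard errors in domains, and its part was not tested.

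**Figure D3:**
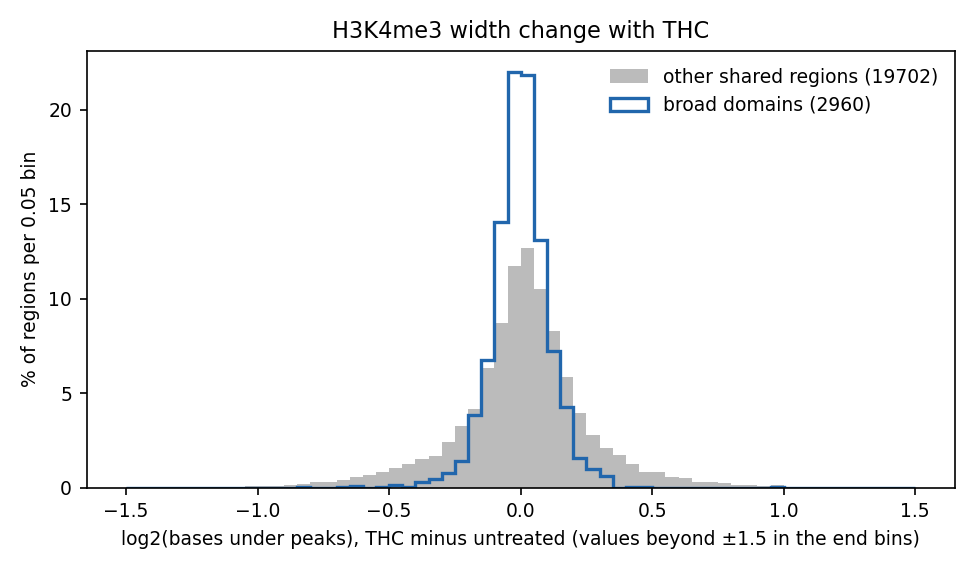
Share of regions, in percent per bin of 0.05, by the difference in log2 covered width between THC and untreated libraries, for 2960 broad domains (blue line) and 19702 other shared regions (grey). Both centre near 0, and the domains are the tighter, with 93.2% within 0.2 of no change against 68.3%. The choice of domains by width favours this, as the same change in bases is a smaller log2 change in a wider region.

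In 180 domains all 3 THC libraries covered more bases than all 3 untreated libraries, 6.08% of domains beside 7.83% of all shared regions. In 140 domains all 3 covered fewer, 4.73% beside 5.12%. Of the 180, 80 reached the width bound in the THC lists alone and not in the untreated lists, and 61 of the 140 in the untreated lists alone, so part of both counts follows from the choice of members. The following had the largest differences and are given as a description, with no test. The domain of 6173 bp at chr13:104007877-104014049, within LOC124903203 and away from its start, covered 2648, 2285 and 2840 bp without THC and 4873, 5197 and 5254 bp with it, a log2 difference of 0.98 (SE 0.09). Its untreated lists alone merged to 2092 bp, so it passed the bound through the THC lists. Toward fewer covered bases the largest difference was in a domain within LINC03082, a long non-coding RNA gene, with 4756, 4536 and 4983 bp against 2688, 3341 and 2875 bp, a log2 difference of -0.69 (SE 0.09). LINC03082 RNA was 0.689, 0.702 and 0.697 TPM untreated, 0.235, 0.226 and 0.211 at 24 h and 0.15, 0.211 and 0.0403 at 72 h, below the level needed for the test. The domain of CDC20, the activator of the anaphase-promoting complex, and its divergent transcript CDC20-DT (chr1:43356852-43364182) covered 6395, 5538 and 5637 bp without THC and 4100, 3838 and 3600 bp with it. Its log2 difference was -0.61 (SE 0.078), and its THC lists alone merged to 4100 bp. CDC20 RNA was 343, 348 and 346 TPM in untreated cells, 364, 354 and 349 at 24 h and 185, 186 and 202 at 72 h, and it fell by 0.85 on the log2 scale at 72 h. CDC20-DT rose at 72 h by 1.16.

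Differences toward more covered bases were next largest at TCEA1, TEP1, PNN, RNF187 and NRBP1, and all 5 were under 5000 bp in the untreated lists alone. At TEP1, which encodes a telomerase-associated protein, coverage was 2921, 3853 and 3048 bp without THC and 4258, 4117 and 4607 bp with it, and TEP1 RNA rose from 9.76 ± 1.2 TPM to 23.5 ± 1.1 at 24 h and 26.4 ± 1.5 at 72 h (SD, n = 3). At RNF187, a ubiquitin ligase gene, coverage was 4886, 4404 and 4499 bp against 5472, 5421 and 6595 bp, and its RNA rose by 0.56 and 1.17 on the log2 scale at 24 and 72 h. NRBP1 RNA rose by 0.30 and 0.36, and PNN, a splicing-associated protein gene, rose by 0.21 at 24 h and stood at 100 to 111 TPM at 72 h against 105 to 115 untreated (adjusted p = 0.636, limma). Toward fewer covered bases the next were a domain in no gene on chromosome 11, 2 within CCDC85C and B4GALT5, and LINC00513. B4GALT5, a galactosyltransferase gene, had 40.1, 41.0 and 41.0 TPM untreated, 122, 129 and 125 at 24 h and 65.2, 69.7 and 68.7 at 72 h, so its RNA was called higher at both times beside the smaller coverage. LINC00513 RNA was 1.46, 1.14 and 1.35 TPM untreated, 1.79, 1.85 and 1.90 at 24 h, all above untreated (adjusted p = 0.0544, limma, and 0.00574 after centring), and 0.736, 1.42 and 1.29 at 72 h, which overlap the untreated values.

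Genes in the domains with more covered bases were called higher at 24 h in 63 of 155 cases (40.6%) and lower in 67 (43.2%). In domains with fewer covered bases 37 of 128 (28.9%) were higher and 68 (53.1%) lower, and in the 2640 domains whose libraries overlapped 24.0% of 2472 genes were higher and 56.0% lower. At 72 h the shares higher were 41.3%, 34.4% and 34.5%, and the shares lower were 32.3%, 45.3% and 40.4%. Over all tested genes 25.0% were higher and 51.7% lower at 24 h, and 40.1% and 33.0% at 72 h. The difference between these sets was not tested.

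At 24 h of THC domain genes moved mostly downward, much as all genes did. Of 2755 domain genes with a mean of at least 1 TPM, 693 rose and 1520 fell (limma on log2(TPM + 1), Benjamini-Hochberg adjusted p of 0.05). These are 25.2% and 55.2%, beside 25.0% and 51.7% of all 13753 genes tested. The median log2 fold change was -0.25 over domain genes and -0.23 over all. By 2-fold or more, 141 rose and 286 fell, 5.12% and 10.4% beside 5.28% and 10.6%. Since TPM sums to a fixed total, a shift of the whole distribution cannot be told apart from abundant genes rising: centring each library on its median, which moves the median over all genes to -0.01, gave 993 higher and 1107 lower, so 47.3% of calls were higher in place of 31.3%. TPM rescaled without mitochondrial and the 10 most abundant other genes gave 708 higher and 1497 lower, with a median log2 fold change of -0.239 over domain genes. Fold changes of log2(TPM + 1) understate the change of low genes, and in bulk RNA fewer cells with a transcript and less of it per cell cannot be told apart.

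At 72 h the calls were more even, and a larger share of domain genes than of all genes was called lower. There were 962 higher and 1106 lower, 34.9% and 40.1% beside 40.1% and 33.0% of all genes. By 2-fold or more, 153 rose and 187 fell, 5.55% and 6.79% beside 8.17% and 5.56%. The median log2 fold change was -0.03 over domain genes and 0.06 over all. After centring, 819 were higher and 1271 lower, beside 34.8% and 38.9% of all genes. Between the 2 THC times 1411 genes were higher at 72 h and 631 lower, 51.2% and 22.9% beside 54.9% and 17.8%, and centring turned this to 700 higher and 1272 lower, 25.4% and 46.2% beside 30.4% and 37.9% of all genes.

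The share of protein-coding genes lower at 72 h grew with domain width. It was 35.2% in the other shared regions, 39.4% at 5000 to under 6000 bp, 41.5% at 6000 to under 8000 bp, 48.0% at 8000 to under 12000 bp and 51.4% of 105 genes at 12000 bp or more. After centring the 4 domain classes had 46.7%, 46.7%, 53.6% and 57.1%. At 24 h the shares lower were 56.3%, 54.6%, 55.3% and 50.5%, with no such order, while the shares higher were 23.5%, 26.6%, 27.4% and 35.2%, the larger in the wider classes, and 35.7%, 37.5%, 38.1% and 46.7% after centring. These orders were not tested. The RNA level moved along with this: of genes with 100 TPM or more, 57.1% of 630 domain genes were lower at 72 h against 47.9% of 637 genes in other shared regions, while at 1 to under 10 TPM the shares were 27.8% and 28.6%. The part of level in the width pattern was not tested further.

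**Figure D4:**
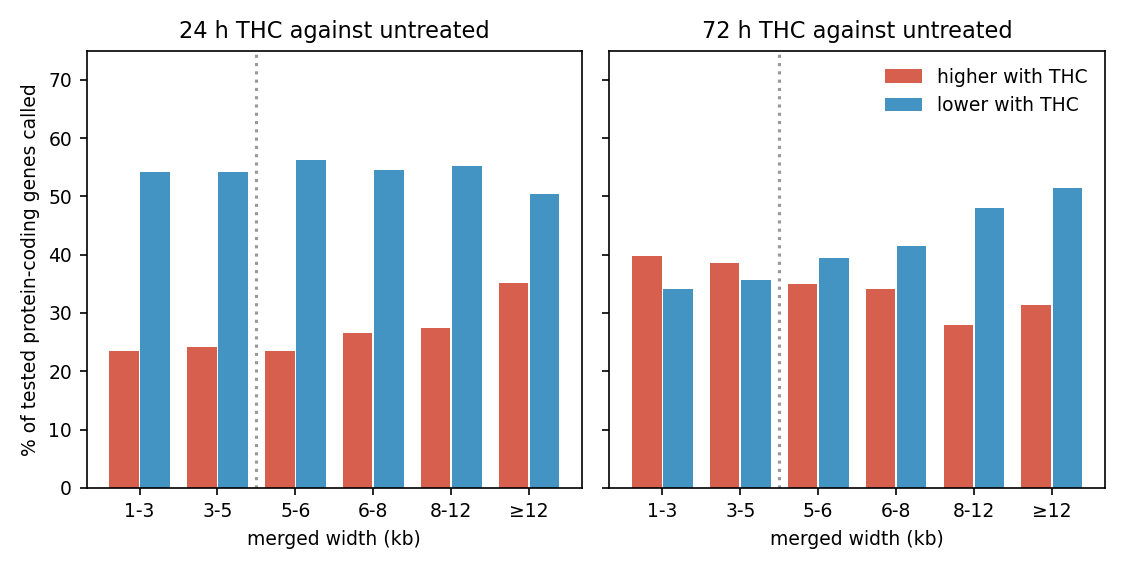
Percent of tested protein-coding genes called higher (red) or lower (blue) with THC, by merged width in kb of the region at the start, at 24 h (left) and 72 h (right); domains lie right of the dotted line. At 72 h the lower share goes from 34.2% at 1000 to under 3000 bp to 51.4% at 12000 bp or more, and at 24 h it stays between 50.5% and 56.3%.

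The largest rise was at CD68, a lysosomal membrane glycoprotein best known from macrophages. CD68 had 0.298, 0.258 and 0.19 TPM in untreated cells, 127, 137 and 133 at 24 h and 29.1, 30.0 and 39.4 at 72 h. All THC libraries were far above all untreated ones, with log2 fold changes of 6.74 and 4.75 (SE 0.101). Its start lies in a domain of 10665 bp that also holds the start of EIF4A1, a translation initiation factor gene, and the 13 immune markers, which do not include CD68, summed to 1.25 to 1.67 TPM untreated, 2.38 to 2.74 at 24 h and 3.29 to 3.95 at 72 h. Their part in the rise of CD68 was not tested. The untreated level was under 1 TPM although the shared domain had peaks in all 3 untreated H3K4me3 libraries. These were 4, 2 and 4 separate peaks covering 7718, 9504 and 8120 bp. Whether the CD68 start itself lay under a peak was not examined.

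Domain genes of the integrated stress response, in which ATF4 and its targets are induced when translation initiation is curbed, rose together: 9 of 9 were called higher at both times, with a median log2 fold change of 2.11 and 2.08, beside 19.7% of all genes higher at both times. DDIT3, the transcription factor CHOP, had 26.2, 26.4 and 27.7 TPM untreated, 646, 711 and 662 at 24 h and 465, 482 and 496 at 72 h. PPP1R15A, the phosphatase subunit that reverses the translation block, had 42.0, 38 and 38.6 TPM, then 831, 809 and 827, then 703, 702 and 721. SLC3A2, the heavy chain of amino acid transporters, had 112, 107 and 89.7 TPM, then 1478, 1487 and 1481, then 2226, 2119 and 2081. None of these groups overlapped. ATF4 itself rose by 1.69 and 1.63, and STC2, a secreted glycoprotein gene, by 2.11 and 2.10. Their domains spanned 7253 to 10081 bp and none passed the test for width. That of DDIT3 covered 6440, 6517 and 6528 bp without THC and 7751, 7293 and 7156 bp with it. That of STC2 covered 6265, 5552 and 5499 bp against 6375, 6478 and 6788 bp. At ATF4, PPP1R15A and SLC3A2 the covered widths of the groups overlapped.

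The domain of SLC3A2 is shared with SNHG1, a host RNA of small nucleolar RNAs, whose start is divergent to it. SNHG1 rose from 66.8 ± 2.8 TPM by 1.31 and 0.92. Of the 8 long non-coding RNAs of the list with a domain, 7 rose and 1 fell at 24 h and 8 rose at 72 h. Over all genes 25.0% were higher and 51.7% lower at 24 h, and 40.1% and 33.0% at 72 h. GAS5, another snoRNA host, had 161, 165 and 177 TPM untreated, 1245, 1360 and 1262 at 24 h and 974, 1146 and 1085 at 72 h. MALAT1, a nuclear-retained RNA, went from 55.5, 40.7 and 62.4 TPM to 128, 126 and 131 and then 119, 164 and 143, and SNHG5 rose by 1.31 and 1.65. Whether counting used strand was not stated, so RNAs that overlap another gene are uncertain.

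Other large rises at 24 h were at UPP1, uridine phosphorylase, from 221, 229 and 228 TPM to 1846, 1666 and 1639, at TM4SF19, a tetraspanin-like membrane protein gene (log2 3.36), and at ZC3H12A, an endoribonuclease gene that restrains inflammatory transcripts (2.96). All 3 were lower at 72 h than at 24 h and still called above untreated. At 72 h the 8 largest rises also took in KLHL21, a ubiquitin ligase adaptor gene, at 8.6 ± 0.56 TPM untreated and a log2 fold change of 2.87, BTG1, an antiproliferative gene (2.81), and RAB43, a small GTPase gene (2.58). KLHL21 and BTG1 sat in domains of 5052 and 5080 bp, close to the lower bound of width.

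Among the largest falls were KCNJ16, TINAG and PLK2. KCNJ16, an inward rectifier potassium channel gene, had 33.0, 39.3 and 36.3 TPM in untreated cells, 2.16, 1.52 and 1.81 at 24 h and 3.03, 2.97 and 3.61 at 72 h, log2 fold changes of -3.72 and -3.15 (SE 0.103). TINAG, a basement membrane glycoprotein gene, had 49.6, 47.2 and 47.4 TPM, then 5.24, 5.01 and 5.81, then 1.71, 1.77 and 1.34. PLK2, a polo-like kinase gene, had 78.3, 83.4 and 75.8 TPM, then 28.9, 34.7 and 38, then 7.51, 6.79 and 8.11. TINAG and PLK2 were lower at 72 h than at 24 h, while KCNJ16 was slightly higher. Covered widths of these 3 domains differed between groups by -0.05 to 0 on the log2 scale.

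**Figure D5:**
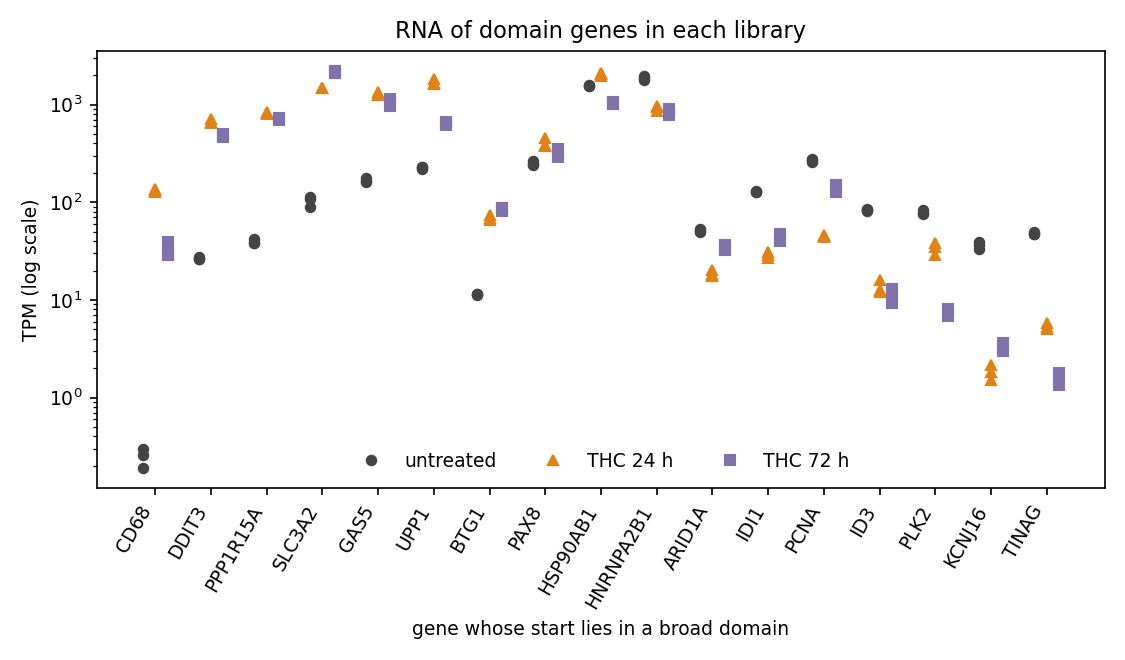
TPM, on a log axis, of 17 domain genes in each of 9 RNA libraries, coloured by group. CD68, DDIT3, PPP1R15A, SLC3A2, GAS5, UPP1 and BTG1 have all THC libraries above all untreated ones, and ARID1A, IDI1, PCNA, ID3, PLK2, KCNJ16 and TINAG have all of them below.

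PCNA, CDKN2C, H2AX, SMAD6 and 3 ID genes also fell at both times. PCNA, the sliding clamp of DNA replication, had 280, 268 and 257 TPM untreated, 43.6, 45.6 and 46.6 at 24 h and 150, 142 and 127 at 72 h. Its domain, shared with CDS2, covered 5369, 5070 and 4850 bp without THC and 3669, 3734 and 4461 bp with it (adjusted p = 0.463, limma). CDKN2C, an inhibitor of the cell cycle kinases CDK4 and CDK6, fell by 2.70 and 1.52, and H2AX, a histone variant of DNA damage signalling, fell by 2.85 and 1.53. ID1, ID3 and ID4 are BMP-induced inhibitors of DNA binding by helix-loop-helix factors, and ID3 had 80.5, 85.3 and 83.3 TPM, then 16, 12 and 12.7, then 12.9, 9.36 and 11.9. ID1 fell by 1.97 and 1.71 and ID4 fell by 2.98 and 1.66, and SMAD6, an inhibitory SMAD gene, fell by 2.43 and 1.92. At 72 h the largest falls also held ANKRD2 (-3.56), an ankyrin repeat gene, SLC47A2 (-3.06), a drug and toxin exporter gene, CCDC198 (-2.94) and FGFR4 (-2.66), a fibroblast growth factor receptor gene.

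Lipid synthesis genes with a domain fell as a group: 7 of 7 sterol and fatty acid genes were called lower at both times, with median log2 fold changes of -1.17 and -1.31, beside 27.8% of all genes lower at both times. IDI1, an isomerase of the isoprenoid pathway, had 129, 127 and 127 TPM untreated, 27.0, 30.9 and 28.7 at 24 h and 39.7, 47.6 and 41.2 at 72 h. SREBF1, the transcription factor of fatty acid synthesis, had 135, 149 and 155 TPM, then 69.7, 57.7 and 66.1, then 59.5, 54.9 and 61.1. DHCR7, the last enzyme of cholesterol synthesis, fell by 0.92 and 0.94 and ELOVL6, a fatty acid elongase gene, fell by 1.62 and 1.28. Their domains, 7833 to 11293 bp wide, had log2 width differences of 0.01 to 0.12, none of which passed the test. That of ELOVL6 covered 7075, 7010 and 6734 bp without THC and 7270, 7107 and 7216 bp with it, more beside lower RNA.

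Of 15 domain genes of chromatin remodelling and H3K4 methylation, 2 rose and 11 fell at 24 h and 2 rose and 8 fell at 72 h, beside 51.7% of all genes lower at 24 h and 33.0% at 72 h. ARID1A, a subunit of the SWI/SNF remodelling complex and a frequent target of mutation in endometrial cancer, had 49.4, 53.1 and 51.0 TPM untreated, 20.1, 17.6 and 18.2 at 24 h and 32.9, 32.3 and 36.1 at 72 h. It fell by 1.41 (SE 0.063) at 24 h and by 0.59 at 72 h, and its domain was 11005 bp wide with a log2 width difference of -0.03. ARID1B, its paralogue, fell by 0.38 at 24 h. KDM5B, a demethylase of H3K4, rose from 9.13, 10.8 and 9.54 TPM to 21.6, 22.8 and 22.9 at 24 h and stood at 19.8, 21.2 and 20.3 at 72 h. Its domain covered 6670, 6745 and 6757 bp without THC and 7696, 7910 and 7814 bp with it (adjusted p = 0.42, limma). The H3K4 methyltransferase gene KMT2D fell by 0.61 at 24 h and KMT2C fell by 0.34 at 72 h. KMT2A rose by 0.17 at 24 h, a call lost without the first untreated library (adjusted p = 0.0544, limma). At 72 h KMT2A was not called as reported but was called lower under several alternatives. Among these were centring (log2 difference -0.214, adjusted p = 0.00307, limma) and rescaled TPM (-0.161, adjusted p = 0.0167, limma).

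Tumour suppressors with a domain counted 2 higher and 12 lower of 17 at 24 h and 3 higher and 11 lower at 72 h. Of all genes 25.0% were higher and 51.7% lower at 24 h, and 40.1% and 33.0% at 72 h. SMAD3, a mediator of TGF-beta signalling, fell from 145 ± 1.3 TPM by 0.89 and 0.84. ZFP36L1, an mRNA decay factor gene, had 224, 227 and 233 TPM untreated, 473, 428 and 448 at 24 h and 197, 223 and 247 at 72 h, so that only 24 h stood apart. CDKN1B, the cell cycle inhibitor p27, fell by 0.39 at 24 h and rose by 0.18 at 72 h, the latter no longer called after centring (adjusted p = 0.126, limma), without the third untreated library (0.0735) or without the second 72 h library (0.0661). Growth and immediate early factors split, with 6 higher and 7 lower of 13 at 24 h and 6 and 6 at 72 h. JUNB, an AP-1 subunit with a domain of 16225 bp, rose by 1.77 and 1.16, and TCF7L2, the Wnt effector, fell by 0.63 and 0.41.

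All 7 Müllerian factors with a domain were called at both times, and 5 rose and 2 fell at each, with median log2 fold changes of 0.69 and 0.32. For these and for the adhesion and keratin genes below, the shares over all genes were 25.0% higher and 51.7% lower at 24 h. At 72 h they were 40.1% and 33.0%. PAX8 rose from 241, 244 and 262 TPM to 456, 376 and 387 at 24 h and 294, 293 and 350 at 72 h, and PAX2 fell by 1.44 and 1.05. KLF5 and KLF6 rose by 0.48 and 1.19 at 24 h and by 0.52 and 1.56 at 72 h. Of 5 epithelial adhesion and keratin genes 4 rose at 24 h, among them CLDN4 (0.55), OCLN (0.51) and KRT8 (0.30), and CLDN1 was at 272 to 284 TPM untreated and 301 to 311 at 24 h (adjusted p = 0.0721, limma), a difference called after centring (0.000469). At 72 h 2 of the 5 were higher and CLDN1 was lower by 0.36. ACTA2, the stromal marker with a domain, fell by 0.65 and 0.82.

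Heat shock and ER chaperone genes with a domain gave 6 higher and 5 lower of 12 at 24 h and 5 higher and 6 lower at 72 h. The shares over all genes were 25.0% higher and 51.7% lower at 24 h, and 40.1% and 33.0% at 72 h. HSP90AB1, the constitutive cytosolic HSP90, has a domain of 13794 bp and had 1563, 1575 and 1560 TPM untreated, 1958, 2086 and 2060 at 24 h and 1017, 1072 and 1039 at 72 h, above the untreated level first and below it later. HSPE1 fell by 1.43 and 1.39 while HSPD1, whose start is divergent in the same domain of 10612 bp, fell by 0.13 at 24 h and 1.03 at 72 h. The 24 h call of HSPD1 was lost without untreated replicate 1 or 2 or 24 h replicate 1 or 3 (adjusted p = 0.0683 to 0.153, limma), and its log2 difference was 0.09 after centring. HSPA1B fell by 0.51 and 0.39, calls lost at 24 h after centring (adjusted p = 0.111, limma) and at 72 h without untreated replicate 1 or 2 or 72 h replicate 2 or 3 (0.0824 to 0.118). As it has a near-identical copy its level is uncertain.

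Of 11 tested genes with a start or an end in the 10 widest domains, 6 fell at both times, beside 27.8% of all genes. PDGFC, a growth factor gene with one of these domains inside it, also fell, by 0.46 and 0.55. HNRNPA2B1, an RNA-binding protein gene, had 1958, 1867 and 1778 TPM untreated, 851, 957 and 945 at 24 h and 858, 904 and 777 at 72 h. CBX3, a heterochromatin protein gene divergent to it, fell by 0.78 and 0.80, and the domain of both covered 19842, 19455 and 19339 bp without THC and 16904, 18019 and 18811 bp with it (adjusted p = 0.65, limma). DCBLD2, a transmembrane receptor gene, fell by 1.06 and 1.00, HOXA4 fell by 0.72 and 0.54, HOXA-AS2 fell by 1.59 and 1.58, and LINC00472 fell by 0.60 and 0.28. MIR23AHG, a microRNA host, rose by 0.62 and 0.36, and PARD6B, a cell polarity gene, rose by 0.54 at 24 h and fell by 1.00 at 72 h. The domain of MIR23AHG covered 22366, 22393 and 22854 bp without THC and 20551, 21597 and 21470 bp with it, fewer beside higher RNA. BCL9L had 99.0, 92.5 and 90.2 TPM untreated and 95.5, 66.8 and 78.6 at 24 h, which overlap, and it was called lower at 24 h without the first 24 h library (adjusted p = 0.00814, limma).

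Genes that share a domain were called in the same direction in 63.8% of called pairs at 24 h and 56.1% at 72 h, where all possible pairs of called domain genes would give 57.0% and 50.2%. Whether the pairs differ from that was not tested. Among 573 domains with exactly 2 tested genes, both were called at 24 h in 362, of which 35 had both higher, 196 both lower and 131 opposite calls. At 72 h 321 pairs were called, with 84 both higher, 96 both lower and 141 opposite. In the 346 divergent pairs with starts within 1000 bp the same direction was found in 64.4% of 219 called pairs at 24 h and in 57.1% of 198 at 72 h.

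Nearly all domains were accessible. An ATAC peak lay in 2669 domains (90.17%) in all 9 ATAC libraries and in 8 domains in none. Domains with a peak made up 99.4, 99.0 and 99.3% in untreated libraries, 98.8, 98.5 and 99.1% at 24 h and 97.8, 90.7 and 99.2% at 72 h, and other shared regions 60.4 to 87.6% over the 9 libraries. The median share of a domain's bases under ATAC peaks was 14.5, 11.5 and 16.3% in untreated libraries, 10.4, 11.1 and 16.1% at 24 h and 13.7, 7.68 and 15% at 72 h. In the other shared regions, which are narrower, this share was the higher in 8 of 9 libraries, at 17.2, 13.8 and 19.8% untreated, and the second 72 h library had 7.13%. The groups overlapped, with differences of -1.56 percentage points at 24 h (exact two-sided permutation test, p = 0.5) and -1.94 at 72 h (p = 0.6). Without the second 72 h library, whose list was the shortest with 38495 peaks against 51017 to 150884 in the others, the 72 h difference was 0.29, and with ATAC peaks of -log10 q of at least 5 it was -5.29 (exact permutation p = 0.3). The mean number of ATAC peaks in a domain was 2.04 ± 0.17 (SD, n = 3) untreated, 1.80 ± 0.14 at 24 h (exact permutation p = 0.2) and 1.49 ± 0.32 at 72 h (p = 0.1, the smallest that 3 against 3 allows). The number of peaks listed per library fell in the same order of groups, from 65042 to 150884 untreated to 38495 to 80773 at 72 h, and its part in the count per domain was not tested.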

How the data were processed

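The libraries analysed were 6 of H3K4me3 CUT&RUN, 9 of RNA and 9 of ATAC, in groups taken from the sample titles. The members, gene lists and comparisons were chosen with earlier results of these data known. The submitters' processing notes name GRCh38 and, with no roles, MACS2 2.2.7.1, MACS3, Bowtie2, Picard and SAMtools beside Salmon, FastQC and Trim Galore. They state neither the control for H3K4me3 peaks nor whether RNA counting used strand. RNA values are TPM as deposited by the authors. TPM keeps no depth, so the depth of each RNA library is unknown and no count test was run. Each library has its own peak list. Fold enrichment, a ratio deposited by the authors for every peak, served to rank peaks within a list, the deposited -log10 q filtered peaks in an alternative (lowest 2.0 in the H3K4me3 lists and 1.3 in the ATAC lists), and the deposited -log10 p and score columns were not used. Lists held 30098 to 35879 H3K4me3 peaks, and read depth is unknown.

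H3K4me3 peaks were merged on overlap (Python 3.11.15, pandas 2.3.3), and covered width is the bases of a domain under a library's peaks. A gene was given to a domain when its outermost 5′ end in RefSeq's table of starts (GRCh38.p14) lay inside it. This table gives a strand for 79.2% of protein-coding genes. Of 3369 domain genes 2993 were matched to TPM by symbol, and 2755 passed a mean of 1 TPM over 9 libraries, 238 falling below. RNA, as log2(TPM + 1), and log2 covered width were tested with limma 3.58.1 in R 4.3.3 (eBayes with trend) across 13753 genes in 3 groups and 22662 shared regions, with no block. Adjusted p is Benjamini-Hochberg, threshold 0.05. Library medians were compared with exact permutation tests (scipy 1.17.1). The tests were tried on simulated data first. Alternatives were a pseudocount of 0.1, no filter, centring, stricter peaks, spans, starts within 1000 bp, the replicate block and leaving out each library. Chosen after seeing the data were TPM rescaled without mitochondrial and the 10 most abundant other genes, 2 other gene assignments, and the domains that reach the width bound in each group alone.

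Named were the 10 widest domains with a gene and 3 on each side of the width bound, the 8 largest rises and falls at each time among called genes with a mean of 5 TPM and no overlap of groups, the 6 largest width differences in each direction, up to 4 members with the widest domain per list, and ARID1A, SREBF1, KMT2A, KMT2D and KDM5B. Members of a list beyond this are given by counts.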

Additional observations from a re-analysis of the deposited data

Results flagged for a closer look

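Domain genes did not all respond in the same direction at both times. Of the domain genes, 287 were called in opposite directions at 24 h and 72 h against untreated cells and also called between the 2 THC times, which tests the difference itself (limma, adjusted p of 0.05). Of these, 220 were lower at 24 h and higher at 72 h, and 67 were higher at 24 h and lower at 72 h. These are 7.99% and 2.43% of tested domain genes, beside 9.61% and 1.52% of all tested genes. The 287 are 10.4% of tested domain genes, beside 11.1% of all tested genes. The direction of the split followed the scaling: after centring each library on its median, 77 were lower and then higher and 181 higher and then lower. These are 2.79% and 6.57%, beside 3.98% and 4.82% of all tested genes. Both comparisons share the untreated libraries.

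HSP90AB1 differed between 72 h and 24 h by -0.96 on the log2 scale, PARD6B by -1.54 and CDKN1B by 0.57. The following 4 were picked after their values were seen, from genes that moved by more than 0.5 on the log2 scale each way. All 4 are among the 67 that were higher at 24 h and lower at 72 h. Other genes past the same bound were among the 220 that went the other way, such as TTC32 (-1.21 and 0.70) and ZNF407-AS1 (-0.98 and 1.29). ANXA2, a membrane-binding annexin gene with a domain of 11592 bp, had 1698, 1627 and 1743 TPM untreated, 2385, 2546 and 2464 at 24 h and 1028, 1061 and 1063 at 72 h, a difference of -1.23 between the times. EPHA2, an ephrin receptor gene, had 116, 122 and 117 TPM, then 207, 176 and 191, then 77.1, 72.5 and 86.1, a difference of -1.28. CGN, the tight-junction gene cingulin, differed by -1.93, from 11 to 12.7 TPM untreated over 19.5 to 22.7 at 24 h to 4.29 to 5.17 at 72 h. GLYCTK, glycerate kinase, with a domain of 17568 bp, differed by -1.65.

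Groups of 3 libraries are too small for a test of single outlying libraries, so none was made.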

How the results depend on the processing

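The number of domains followed the width bound, with 5507 at 4000 bp and 1545 at 6000 bp, and was 2865 with peaks of -log10 q of at least 5, 3537 when gaps up to 500 bp were bridged and 2960 when 5 of 6 lists sufficed. Width calls in domains were 0 each way as reported and under the replicate block, and 1 wider with stricter peaks, 1 wider after centring and 1 narrower with spans. Leaving out any single library gave 0 to 0, and so did keeping only the 1927 domains of 5000 bp or more in each group alone, chosen after seeing the data. The called domains are at LOC124903203 and CDC20, which reached the width bound in 1 group alone. The difference in median width was -0.0019 with spans. The cause was not tested. RNA counts stayed within 1.5 times the reported ones under every alternative except centring for 72 h against 24 h, with 700 higher and 1272 lower. There the construction moves each library's median to the same value. With single libraries left out, counts at 24 h ran from 658 to 697 higher and 1438 to 1521 lower, at 72 h from 898 to 979 and 1027 to 1117, and between the times from 1341 to 1409 and 568 to 631. Under the replicate block counts were 693 higher and 1527 lower at 24 h and 975 and 1099 at 72 h. Same-numbered RNA libraries correlated from -0.199 to 0.252 in their deviations, so the numbers were not taken to pair the samples. With single libraries left out, ATAC differences ran from -3.35 to -0.47 percentage points at 24 h and from -3.38 to 0.29 at 72 h, the last without the second 72 h library. With ATAC peaks of -log10 q of at least 5 they were -2.26 and -5.29.

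Of the named genes, these changed sign, the cause not being tested. After centring KRT8 was -0.008 at 72 h, KMT2C 0.08 at 24 h and HSPD1 0.086 at 24 h. With single libraries left out, 72 h log2 fold changes ran from -0.12 to 0.043 for ZFP36L1, from -0.167 to 0.004 for KMT2D, from -0.214 to 0.024 for LINC00513 and from -0.065 to 0.015 for PNN, the upper ends being without 72 h replicates 1, 2, 1 and 3, and PNN was 0.0 without the first untreated library. Except for HSPD1 at 24 h none of these was called as reported.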

Other observations

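A broad domain did not always go with a mean of 1 TPM or more. In 17 of 2068 domains with a matched protein-coding gene (0.82%), all such genes had a mean under 1 TPM over the 9 libraries. Genes placed only by an end were not counted here. The 17 were picked after their values were seen and had a median width of 6340 bp. Of their 23 genes 10 are histone genes, such as H3C2, H4C2 and H2AC4 in a single domain of 9496 bp. These have near-identical copies, so the split of reads between them is uncertain. Among the others were SHH, a secreted morphogen gene with 1.94, 1.27 and 1.5 TPM untreated, 0.17, 0.0346 and 0.0464 at 24 h and 1.34, 0.76 and 1.18 at 72 h, NR4A3, a nuclear receptor gene at 0.0061 to 0.2 TPM, and BAHCC1 at 0.00585 to 0.242 TPM.

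Genes without a strand in the reference table, placed by the end that lies in a domain, added members to several lists. NEAT1, a nuclear architectural RNA with a domain of 18344 bp, had 334, 320 and 322 TPM untreated, 1049, 1066 and 1015 at 24 h and 833, 852 and 851 at 72 h. FASN, fatty acid synthase, had 108, 112 and 95.5 TPM, then 27.0, 16.1 and 25.6, then 24.0, 24.5 and 25.9. KRT7, a keratin of simple epithelia, had 977, 948 and 952 TPM, then 1900, 1889 and 1842, then 1219, 1121 and 1198. With these additions all 9 sterol and fatty acid genes with a domain were lower at both times, beside 27.8% of all genes. Of 19 chromatin genes 15 were lower at 24 h, beside 51.7% of all genes.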
